A study of Mus musculus with 8 samples.

Results

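AtT-20 cells, a mouse pituitary corticotrope tumour line, were compared after 72 h and 0 h of tamoxifen, with n = 2 libraries at each time. All cells of both groups carry ER-Pax7, a fusion of the transcription factor Pax7 with an estrogen receptor part that responds to tamoxifen, and by their labels the groups differ in the hours of tamoxifen. Members were the 9610 of 55401 genes whose mean signal over these 4 libraries was at least 1. A further 8249 weakly expressed genes, with a mean from 0.1 up to 1, were kept apart. The series holds 8 libraries in all, with 2 each at 24 h and 48 h between these times. All are of 1 cell line and 1 genotype. Cells without ER-Pax7 or without tamoxifen for 72 h were not analysed here, so effects of ER-Pax7 activity, of tamoxifen and of hours in culture cannot be told apart. Whether replicates came from separate cultures is not labelled, so the p-values reflect the spread of these libraries alone and that spread may be technical.

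Pax7 is a pioneer factor, a protein that can open closed chromatin, and in the intermediate lobe of the pituitary it sets melanotropes apart from corticotropes. Both cell types make proopiomelanocortin (Pomc), and they cut it into different hormones: corticotropes release ACTH, whereas melanotropes use the convertase Pcsk2 to make alpha-MSH. Corticotropes answer to CRH and are restrained by glucocorticoids through the receptor Nr3c1, with nuclear receptors of the Nr4a family acting on the Pomc promoter. The series title concerns the removal of DNA methylation by Pax7, and 72 h is its last time point.

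The deposited value of a gene is a signal, its mean normalised read coverage per base over its merged exons. Summed signal was between 164236 and 178548 per library, and read depth is not given. In replicate 2 of 72 h the ribosomal RNA genes summed to 601, or 0.365% of its signal. The remaining 7 libraries had 48.7 to 200.1. At 24 h replicate 2 had 200.1 against 48.8 in replicate 1, and at 48 h 175.7 against 65.1. At 0 h replicate 2 had 59.9 against 48.7, and replicate 1 of 72 h had 52.5. The excess in replicate 2 of 72 h was treated as technical, and no ribosomal RNA gene is described as a response. A stretch of 13 genes on chromosome 12 (log2 changes of -5.64 to -2.08) and one of 12 genes on chromosome 13 (2.61 to 2.71) held 0 called genes and are not described as a response. Those on chromosome 13 held near-equal values within a library but differed between the 72 h replicates, at 85.7 to 86.03 and 2.78 to 3.04. Those on chromosome 12 differed between the 0 h replicates, at 69.7 to 115 and 313 to 328, and had 2.28 to 45.7 and 1.72 to 44.6 at 72 h. The cells expressed Pomc and Tbx19, the factor that drives it. Pomc had a signal of 634 and 623 at 0 h against 662 and 679 at 72 h. Tbx19 had 18.7 and 17.7 at 0 h against 22.5 and 23.2 at 72 h. Corticotropes and melanotropes both make Pomc, so its level does not tell them apart. Of the markers of fibroblasts, immune cells and muscle 0 were at a mean of 1 or more, and of the endothelial ones only Egfl7 was, at 1.15 and 1.46 at 0 h against 1.51 and 1.09 at 72 h.

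At 72 h 195 genes (2.03% of those tested) passed the limma test at an adjusted p of 0.05. Log2 changes are on the log2(signal + 1) scale, which understates the change of low genes, and ratios are of mean signals. Of these 119 (1.24%) rose and 76 (0.791%) fell, and 1515 genes had an unadjusted p under 0.05. The response was one of small steps: 6 of the called genes had a log2 change of at least 1 in size, 141 were under 0.5, and the median ratio was 1.46-fold for the higher and 1.44-fold for the lower genes. Both 72 h libraries lay outside the range of both 0 h libraries for all 195, which also held for 27.5% of all tested genes upward and 22.5% downward. Protein-coding genes made up 177 of the 195. The share called was 1.54% at a mean signal of 1 to 2, 3.10% at 5 to 10 and 1.13% at 50 or more. Among the called genes 28 (14.4%) shared more than 10% of their exonic bases with a second gene, against 21.8% of tested genes. Their reads cannot be told apart, because the labels do not state whether strand was used.

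**Figure D1:**
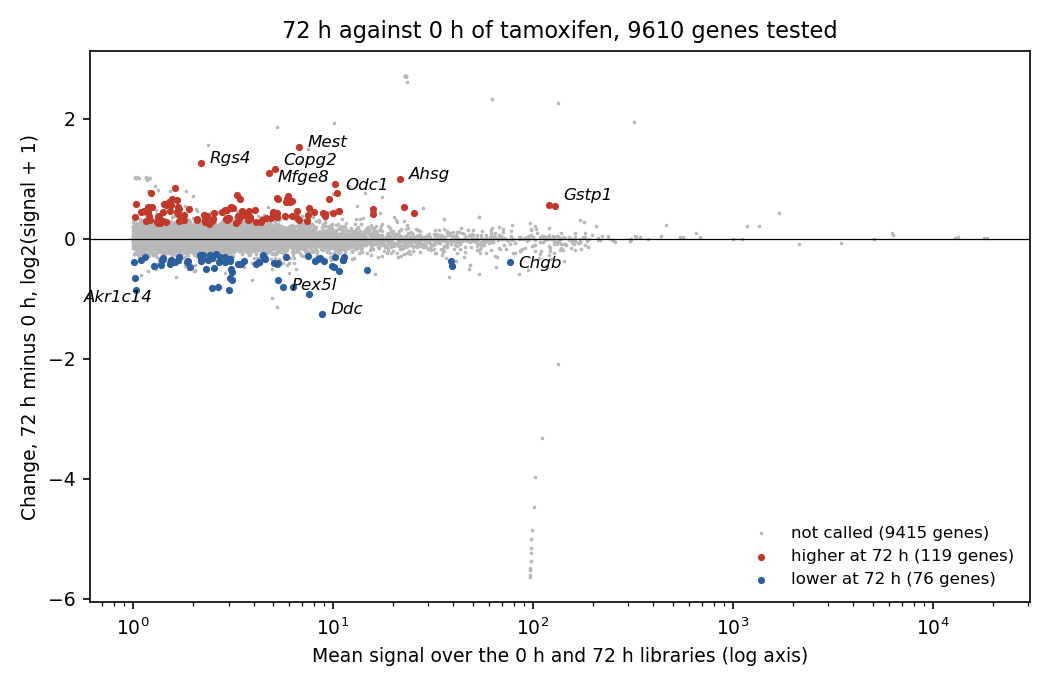
Change at 72 h against 0 h on the log2(signal + 1) scale (y axis) against the mean signal over the 4 libraries on a log axis (x axis), 1 point per tested gene. The 119 genes called higher (red) and 76 called lower (blue) lie near the edge of the grey cloud, while the grey points far below 0 and above 2 are uncalled genes, among them the blocks on chromosomes 12 and 13.

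With 2 libraries a group, most calls needed all 4 libraries. When each library was left out in turn, the 0 h libraries (replicate 1, then 2) gave 17 and 10 calls and the 72 h libraries 23 and 48. The libraries of other times enter only through the spread: leaving out one at 48 h gave 85 and 82 calls, and at 24 h 326 and 325. Counts below are in this order of replicates. The genes Akr1c14, Copg2, Ddc, Enpp2, Gm37459, Il13ra1, Mest, Mfge8, Pex5l and Rgs4 were called in all 8 of these fits, and 159 of the 195 in no fit that lacked a 0 h or 72 h library.

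**Figure D2:**
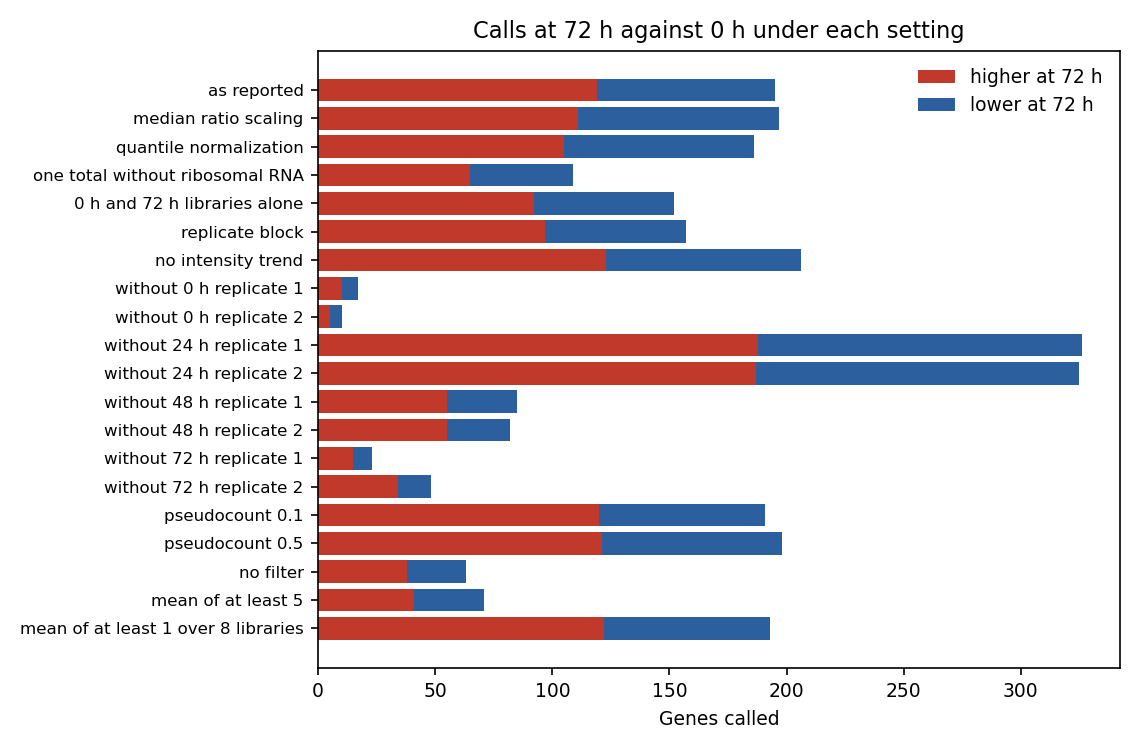
Number of genes called higher (red) and lower (blue) at 72 h (x axis) with the fit as reported and with each alternative (y axis). The number of calls, 195 as reported, was between 186 and 198 under scaling by median ratio or quantiles and other pseudocounts. It was 109 with one total without ribosomal RNA and lower still where a 0 h or 72 h library was left out. Of the 195 genes, 88 were called under all 3 other scalings.

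The called genes were sorted by 61 lists of gene functions, of which 58 had tested members. Genes on any list were called in 103 of 3245 cases (3.17%) and genes on none in 92 of 6365 (1.45%). The lists were chosen with earlier results of these data known, so these shares and their order are descriptions and no support for a class. Among lists with at least 10 tested members the shares were highest, beside the 2.03% of all genes, for granule cargo (3 of 11), corticotrope genes (3 of 13), imprinted genes (6 of 26), antigen presentation and interferon genes (6 of 29) and enzymes of drug, steroid and oxidant defence (10 of 71). The median log2 change of these lists was small, -0.11 for granule cargo, 0.13 for corticotrope genes, 0.05 for imprinted genes, 0.05 for antigen presentation and 0.04 for defence enzymes, against 0.01 over all tested genes. An unadjusted p under 0.05 was reached by 7, 9, 12, 12 and 19 of their members in the same order, against 1515 of all 9610 genes. Of the shorter lists, blood plasma type proteins had 2 of 3 called. Each list with more than 3 calls had calls in both directions.

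**Figure D3:**
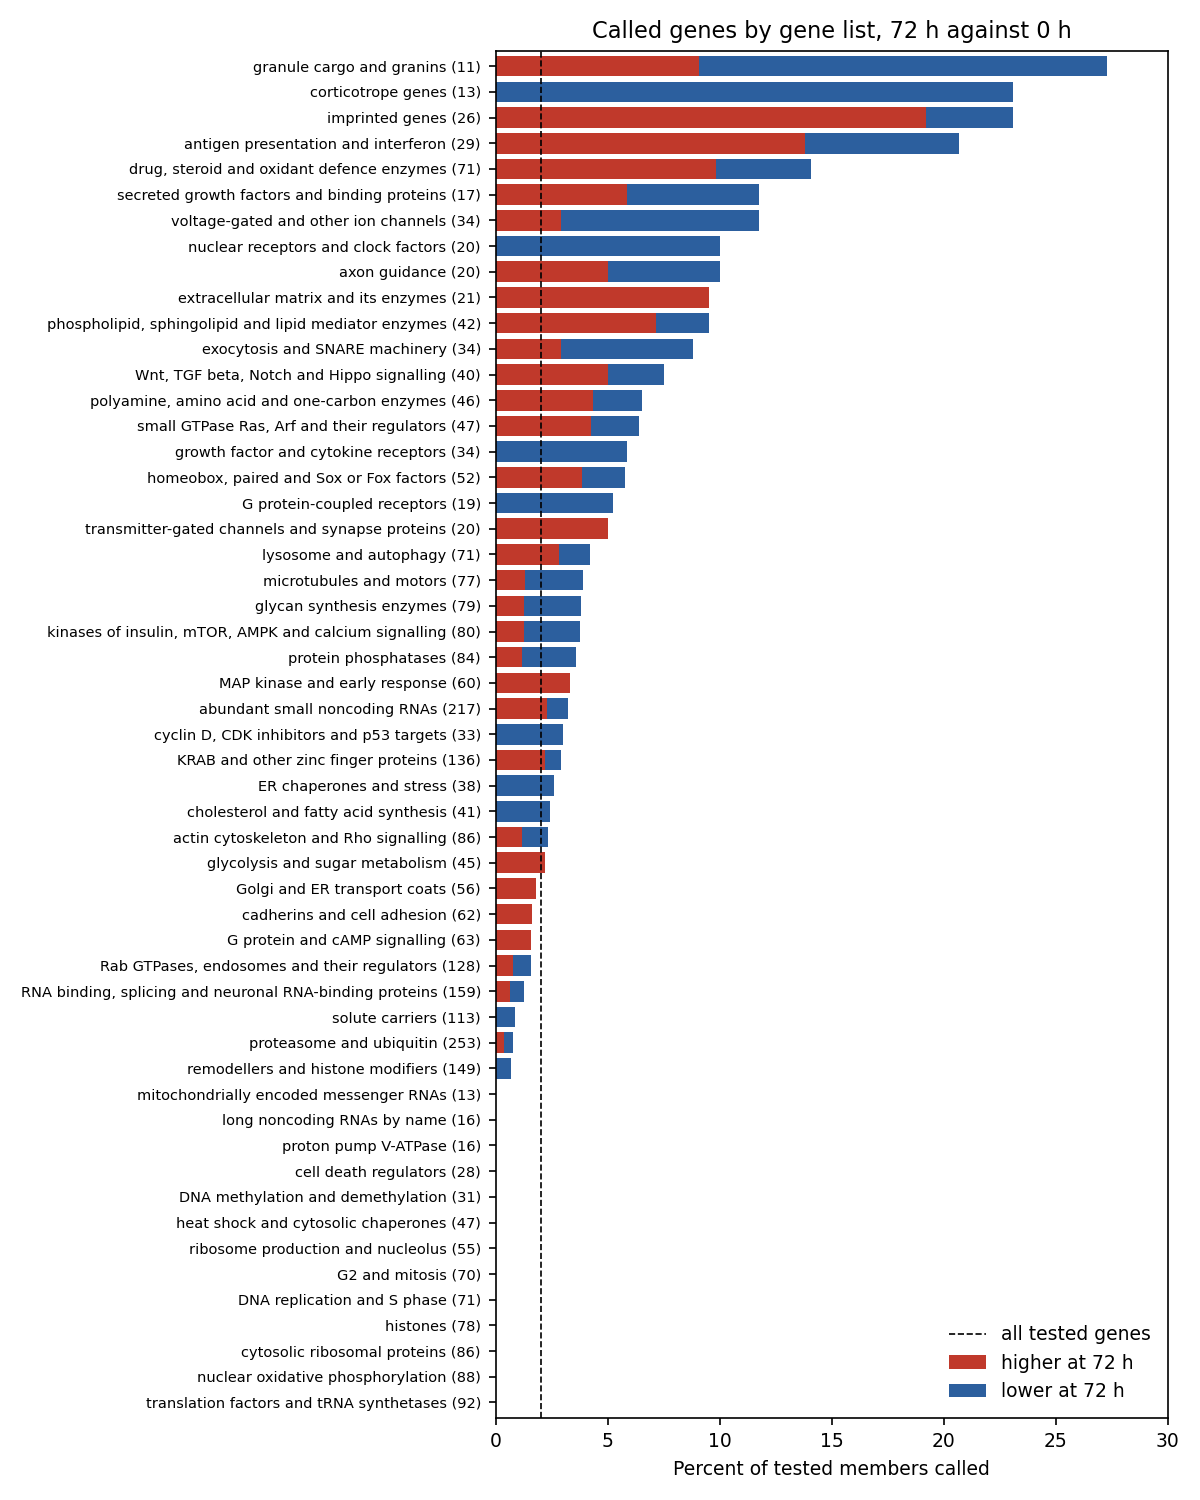
Percent of the tested members of each gene list that were called higher (red) or lower (blue) at 72 h, for lists with at least 10 tested members (number in parentheses). The dashed line marks the 2.03% of all tested genes; lists of DNA replication, mitosis, protein synthesis and oxidative phosphorylation stand at 0.

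Lists of basic cell functions gave 0 calls: nuclear oxidative phosphorylation (88 genes), cytosolic ribosomal proteins (86), translation factors and tRNA synthetases (92), histones (78), DNA replication (71), mitosis (70), ribosome production (55), heat shock proteins (47), DNA methylation and demethylation (31) and cell death regulators (28). At an unadjusted p under 0.05 these lists held 5, 2, 7, 19, 7, 4, 4, 7, 3 and 5 genes. The histones had a share of 19 of 78, and their median log2 change was -0.05. The histone genes with the lowest p were H2bc7 and H2bc8. H2bc7 had 117 and 105 at 0 h against 71.7 and 82.02 at 72 h (adjusted p = 0.0802), and H2bc8 had 136 and 130.5 at 0 h against 89.8 and 105 at 72 h (adjusted p = 0.0802). In both, each 72 h library was below each 0 h library, but neither passed the test. Histone genes share long stretches of sequence, so single copies are uncertain. Within the methylation list the lowest p belonged to Ogt, the glycosyltransferase that binds Tet proteins, at 2.06 and 2.26 at 0 h against 1.56 and 1.68 at 72 h (adjusted p = 0.0703).

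Imprinted genes are expressed from the copy of 1 parent, and the silent copy often carries DNA methylation. The list held 5 members that rose and 1 that fell among 26. Mest, a hydrolase expressed from the paternal copy, and its antisense neighbour Copg2 overlap, with 23.1% and 17.8% of their exonic bases shared. Mest had 2.98 and 3.0 at 0 h, 7.39 and 8.02 at 24 h and 9.16 and 9.44 at 48 h, and 10.8 and 10.4 at 72 h (log2 change 1.53, SE 0.0543, adjusted p = 0.000109). Copg2, a subunit of the Golgi coat, had 2.82 and 2.72 at 0 h against 7.45 and 7.45 at 72 h (log2 change 1.17, SE 0.0472, adjusted p = 0.000146). The libraries of Mest did not overlap between any 2 times. Nap1l5, a nucleosome assembly protein gene, went from 4.3 and 4.34 at 0 h to 6.06 and 6.23 at 72 h (log2 change 0.43, SE 0.0631, adjusted p = 0.0215). Klf14, a zinc finger gene near Mest, went from 2.58 and 2.34 at 0 h to 3.35 and 3.35 at 72 h (log2 change 0.33, SE 0.0531, adjusted p = 0.0283). Ddc, an enzyme of monoamine synthesis, fell from 13.3 and 12.5 at 0 h to 4.75 and 4.84 at 72 h (log2 change -1.26, SE 0.0642, adjusted p = 0.000295). Among members that were not called, Peg13 had 1.23 and 1.26 at 0 h against 1.61 and 1.72 at 72 h (adjusted p = 0.0535).

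A locus in the Dlk1-Dio3 imprinted region, at chr12:109589193-109600330 (GRCm38), held 5 genes called higher: Rtl1, a retrotransposon-derived gene of the paternal copy, and the miRNA genes Mir127, Mir434, Mir136 and Mir3071. The miRNA genes lie wholly inside exons of other genes, and Mir136 and Mir3071 cover the same bases on opposite strands. Rtl1 had 4.97 and 4.79 at 0 h against 6.39 and 6.82 at 72 h (log2 change 0.37, SE 0.056, adjusted p = 0.0225). Mir127 had 5.41 and 5.34 at 0 h against 7.97 and 7.67 at 72 h, and Mir434 7.72 and 7.69 at 0 h against 10.2 and 10.9 at 72 h. Mir136 had 3.89 and 4.29 at 0 h against 5.75 and 6.0 at 72 h, and Mir3071, with which it shares its bases, 3.92 and 4.29 at 0 h against 5.78 and 6.0 at 72 h. These are reads of long RNA over the miRNA genes, without separation by strand, and do not measure the mature miRNAs. The mature sequences encoded there, from RefSeq (GRCm38.p6), are shown with the seed (bases 2 to 8) in capitals, because they are the known products of these genes:
mmu-miR-127-3p: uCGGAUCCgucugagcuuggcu
mmu-miR-434-3p: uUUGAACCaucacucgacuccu
mmu-miR-136-5p: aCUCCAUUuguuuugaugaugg
mmu-miR-3071-5p: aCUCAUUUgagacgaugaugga
The 4 seeds differ from each other. Mir434 and Klf14 were described after their values were seen. Of the 10 calls among imprinted genes and this locus, Mest, Copg2 and Ddc remained without any 1 of the 4 libraries, and 5 of the 10 remained with libraries scaled to one total without ribosomal RNA.

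Corticotrope genes gave 0 higher and 3 lower calls among 13 tested, although 9 of the 13 had a log2 change above 0 and 4 below, with a median of 0.13. Nr4a2, a nuclear receptor that CRH induces in corticotropes, fell from 3.98 and 3.8 at 0 h through 1.69 and 1.91 at 24 h and 2.21 and 2.13 at 48 h to 2.4 and 2.26 at 72 h (log2 change -0.55, SE 0.0557, adjusted p = 0.00656). It was thus lowest at 24 h and partly back at 72 h. Nr3c1, the glucocorticoid receptor, had 5.07 and 4.93 at 0 h against 3.43 and 3.69 at 72 h (log2 change -0.40, SE 0.072, adjusted p = 0.0436). The call of Nr3c1 was lost under each of the 3 other scalings. Sstr5, a somatostatin receptor that inhibits hormone release, had 1.71 and 1.66 at 0 h against 1.04 and 1.14 at 72 h (log2 change -0.36, SE 0.0534, adjusted p = 0.021). The genes Pomc and Tbx19, with the values given above, did not pass (adjusted p = 0.625 and 0.119). The Pax7 locus had 12.9 and 13.3 at 0 h against 13.4 and 14.3 at 72 h (adjusted p = 0.685). The Pax7 value may hold reads of the introduced fusion, and so may Esr1, at 15.96 and 16.5 at 0 h against 18.1 and 17.98 at 72 h (adjusted p = 0.258). For Gata2, a factor of other pituitary hormone cells, the values were 1.8 and 1.82 at 0 h against 1.46 and 1.15 at 72 h (adjusted p = 0.124). Nr4a2 alone of the 3 lower calls remained without 72 h replicate 2, and 0 of the 3 without any 1 of the other libraries of these times. Without either 48 h library 1 remained, and 2 with one total without ribosomal RNA.

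Some melanotrope genes rose at low levels. Of 21 listed genes 4 were tested in the main set and 0 were called by limma. The 1 with an unadjusted p under 0.05, the transporter gene Slc16a10, had the opposite direction, at 1.45 and 1.3 at 0 h against 1.13 and 1.19 at 72 h (log2 change -0.13, unadjusted p = 0.0438). Among weakly expressed genes, whose log2 changes are on the log2(signal + 0.1) scale here and below, 3 of 6 members rose and 0 fell, where 0.776% of the 8249 weakly expressed genes were called higher. Oacyl and Mybpc1 were under 0.1 in both 0 h libraries and entered the 6 only through those of 72 h, so this count is no support for a rise of the list. Pcsk2 had 0.325 and 0.294 at 0 h, 0.622 and 0.59 at 24 h and 0.802 and 0.71 at 48 h, and 0.845 and 0.822 at 72 h (log2 change 1.19, SE 0.099, adjusted p = 0.0041). Mybpc1, a myosin-binding protein gene, rose from 0.0616 and 0.0456 at 0 h to 0.304 and 0.398 at 72 h. Oacyl, an acyltransferase-like gene, rose from 0.0129 and 0.0171 at 0 h through 0.237 and 0.374 at 24 h and 0.438 and 0.483 at 48 h to 0.618 and 0.635 at 72 h. At 72 h Pcsk2, the highest of them, still had a signal under 1, against a mean of 670.5 for Pomc. Of 6 weakly expressed corticotrope genes, chosen here after their values were seen, Nr4a3 rose from 0.148 and 0.148 at 0 h to 0.414 and 0.399 at 72 h and the cytokine gene Lif from 0.165 and 0.194 at 0 h to 0.391 and 0.355 at 72 h. Nr4a3 therefore rose while Nr4a2 of the same receptor family fell, although the difference between the 2 genes was not tested. Of these 5 calls 2 and 1 remained without a 0 h library and 3 and 2 without a 72 h library, Oacyl in each case.

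Genes of regulated secretion moved both ways. Rab27a, the small GTPase that docks granules at the plasma membrane, rose from 4.36 and 4.16 at 0 h to 7.32 and 7.97 at 72 h (log2 change 0.72, SE 0.0967, adjusted p = 0.0169). Its effector Sytl4, also called granuphilin, fell from 4.21 and 4.05 at 0 h to 2.66 and 2.99 at 72 h (log2 change -0.42, SE 0.0568, adjusted p = 0.0166). In the weak genes another effector of Rab27a, Sytl2, rose from 0.235 and 0.288 at 0 h through 0.69 and 0.547 at 24 h and 1.03 and 1.03 at 48 h to 1.123 and 1.18 at 72 h (log2 change 1.79, SE 0.124, adjusted p = 0.00189). Snap25, the membrane SNARE of vesicle fusion, fell from 12.7 and 12.7 at 0 h to 10.0 and 10.2 at 72 h (log2 change -0.30, SE 0.0564, adjusted p = 0.0476). The call of Snap25 was lost under each of the 3 other scalings. Thus 1 of 34 tested genes of exocytosis rose and 2 fell, and the weakly expressed Sytl2 was 4.4-fold higher.

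Granule cargo gave 1 higher and 2 lower calls among 11. Chgb, the granin chromogranin B, fell from 87.7 and 87.3 at 0 h through 61.8 and 65.8 at 24 h and 66.5 and 66.1 at 48 h to 64.7 and 68.2 at 72 h (log2 change -0.39, SE 0.0625, adjusted p = 0.0282), a drop already present at 24 h. Adm, the vasodilator peptide adrenomedullin, fell from 1.78 and 2.01 at 0 h to 1.15 and 1.17 at 72 h. Pam, the enzyme that amidates the end of many peptide hormones, alpha-MSH included, rose from 7.73 and 7.17 at 0 h to 10.3 and 10.3 at 72 h (log2 change 0.42, SE 0.0668, adjusted p = 0.0271). Pam climbed in its mean at each time. Creb3l1, a membrane-bound factor of secretory cells, fell 1.62-fold. Described after their values were seen, the peptide hormone gene Sct fell 1.47-fold, the redox enzyme gene Mical2 fell 1.37-fold and Exoc4 of the exocyst rose 1.28-fold. Ahsg and Fetub, neighbours that encode fetuins of blood plasma, rose 2.07-fold and 1.67-fold. The promoter of Chgb is shown because Chgb was the called granule gene of highest level and its window holds a full cAMP response element, TGACGTCA (in capitals). It covers 250 bases before and 50 after the RefSeq start, chr2:132781392-132781691, plus strand, GRCm38.p6:
Chgb: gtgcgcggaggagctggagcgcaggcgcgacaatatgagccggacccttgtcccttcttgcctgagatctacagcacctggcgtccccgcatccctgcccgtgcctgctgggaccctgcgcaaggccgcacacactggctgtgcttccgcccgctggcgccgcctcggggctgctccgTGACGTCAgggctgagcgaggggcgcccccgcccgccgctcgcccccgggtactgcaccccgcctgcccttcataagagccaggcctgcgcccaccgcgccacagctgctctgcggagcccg
The same 8 letters, on either strand, stood in 1.79% of all 32851 RefSeq windows of this kind. Counted by gene instead, 3.88% of the 6389 tested genes with a window had them in at least 1 window. Windows were found for 75.4% of called genes and 66.6% of tested genes, too few to compare the shares of called genes. Of the 12 main calls on secretion, 1 and 0 remained without a 0 h library, 1 and 3 without a 72 h library, and 5 and 3 without a 48 h library. With one total without ribosomal RNA 6 remained.

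**Figure D4:**
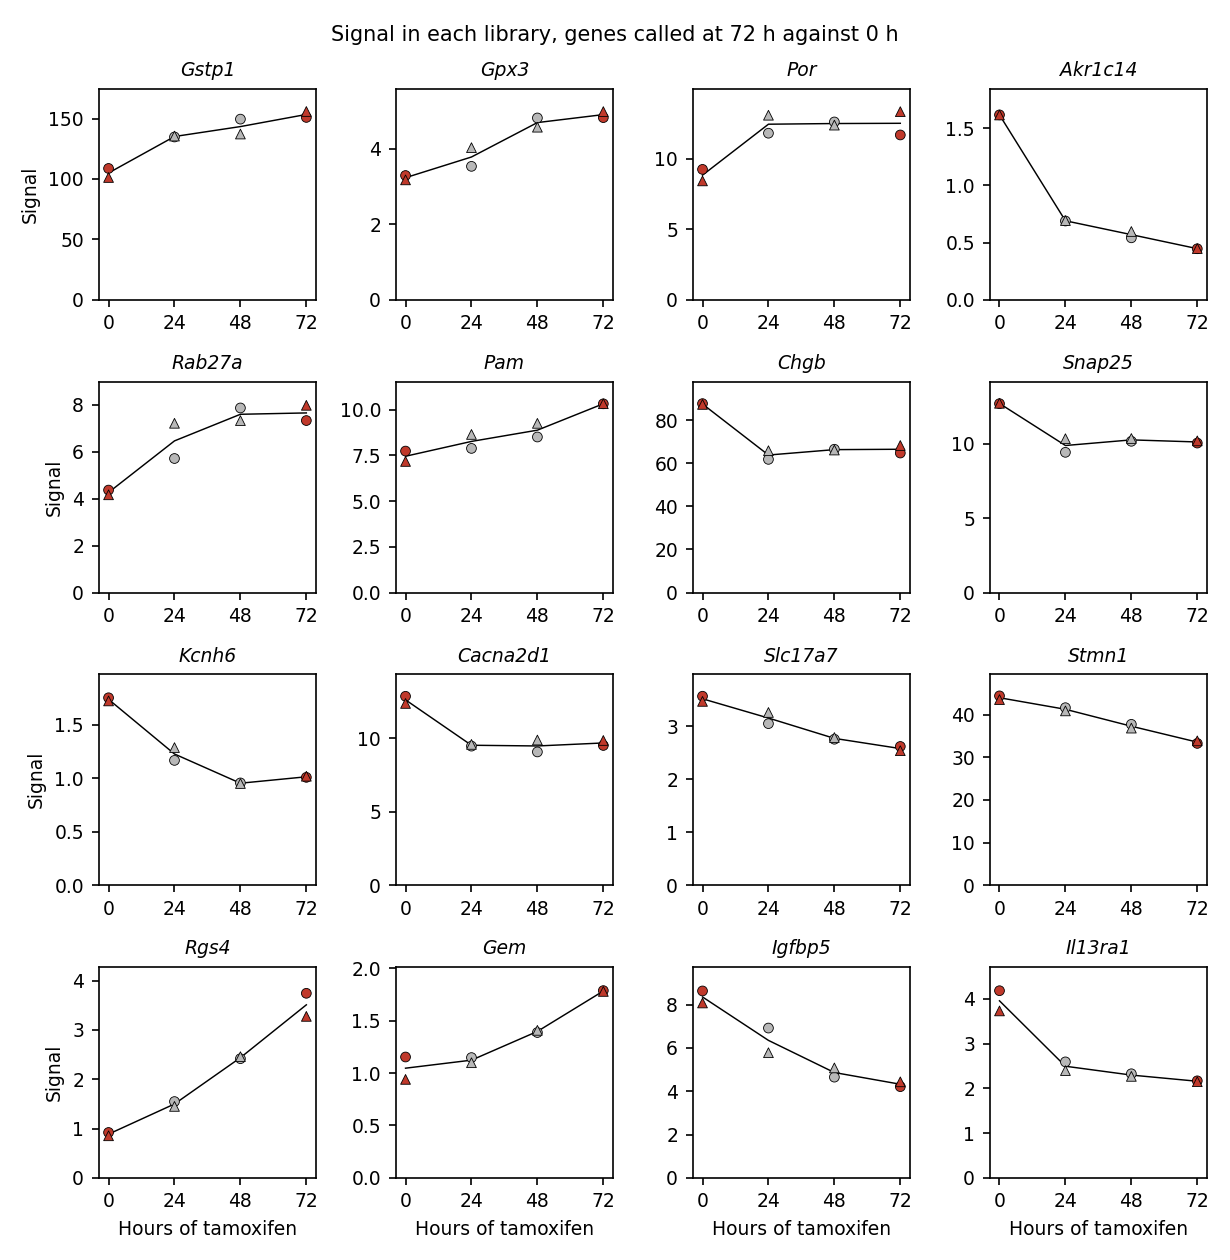
Signal (y axis, linear from 0) against hours of tamoxifen (x axis) for 16 called genes; circles are replicate 1, triangles replicate 2, red the 0 h and 72 h libraries that were compared, and lines join the means. The means of Rgs4, Gem and Gpx3 rose at each time, although the 24 h libraries of Gem lay within the range of its 0 h libraries. Chgb, Cacna2d1 and Akr1c14 had made most of their change by 24 h.

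Ion channel genes, which set the electrical activity of these excitable cells, gave 1 higher and 3 lower calls among 34 (median log2 change -0.03). Kcnh6, a potassium channel of the Erg family, fell from 1.75 and 1.72 at 0 h through 1.17 and 1.29 at 24 h and 0.955 and 0.95 at 48 h to 1.01 and 1.02 at 72 h (log2 change -0.44, SE 0.0459, adjusted p = 0.00724). Cacna2d1, the alpha2delta subunit of voltage-gated calcium channels, had 12.9 and 12.4 at 0 h against 9.52 and 9.86 at 72 h (log2 change -0.35, SE 0.0573, adjusted p = 0.0306). Kcnip3, a calcium-binding partner of Kv4 potassium channels, rose from 2.31 and 2.1 at 0 h to 3.47 and 3.29 at 72 h (log2 change 0.45, SE 0.0516, adjusted p = 0.0119). In the weak genes Scn2b, a subunit of sodium channels, fell from 0.663 and 0.654 at 0 h to 0.293 and 0.326 at 72 h. Pex5l, which guides HCN channels to the membrane and stands on none of the lists, fell from 7.35 and 7.43 at 0 h to 3.89 and 3.75 at 72 h and was called in every fit that left out a library.

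Neuronal genes outside the channels were divided. Slc17a7, the vesicular glutamate transporter, fell from 3.57 and 3.47 at 0 h to 2.62 and 2.54 at 72 h (log2 change -0.34, SE 0.0468, adjusted p = 0.0175) and was the 1 called gene of 113 solute carriers. Olfm1, a secreted synapse protein, rose from 4.68 and 4.49 at 0 h to 7.59 and 7.53 at 72 h (log2 change 0.62, SE 0.0601, adjusted p = 0.00608). Of 20 genes of axon guidance Sema4c rose 1.6-fold and the netrin gene Ntn4 fell 1.65-fold, and the ephrin Efna5 fell 1.36-fold. Stmn1, which takes microtubules apart, fell from 44.4 and 43.5 at 0 h through 41.6 and 40.9 at 24 h and 37.7 and 36.9 at 48 h to 33.3 and 33.9 at 72 h. Map4, which stabilises them, fell 1.29-fold, whereas the tubulin gene Tubb6 rose 1.33-fold. Stmn1 was lower at each later time than at the one before. The neuronal RNA-binding protein gene Elavl3 rose 1.4-fold. Seen in the values and then described, Nav1 rose 1.85-fold and Lrrn3 fell 1.5-fold. The 14 main calls named here on channels and neuronal genes, Pex5l aside, came down to 0 and 0 without a 0 h library, 0 and 2 without a 72 h library and 6 without either 48 h library. With one total without ribosomal RNA 7 remained.

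In signalling, Rgs4, a protein that speeds up the shutdown of Gi and Gq proteins, rose most, from 0.92 and 0.853 at 0 h through 1.55 and 1.45 at 24 h and 2.42 and 2.46 at 48 h to 3.74 and 3.27 at 72 h (log2 change 1.26, SE 0.0599, adjusted p = 0.000295). It was the 1 called gene of 63 in G protein and cAMP signalling and climbed at each time. Gem, a small GTPase that holds back calcium channels, rose from 1.15 and 0.94 at 0 h to 1.79 and 1.78 at 72 h (log2 change 0.45, SE 0.0576, adjusted p = 0.0149). Of 60 genes of MAP kinase and early response signalling Ier3 rose from 0.599 and 0.66 at 0 h to 1.46 and 1.43 at 72 h, and 0 fell. The other that rose was Dusp14, a phosphatase of MAP kinases, from 1.54 and 1.32 at 0 h to 2.27 and 2.1 at 72 h. Igfbp5, a binding protein that holds insulin-like growth factors, fell from 8.63 and 8.07 at 0 h through 6.92 and 5.78 at 24 h and 4.65 and 5.08 at 48 h to 4.21 and 4.43 at 72 h (log2 change -0.81, SE 0.0828, adjusted p = 0.00676). Wnt10a, a Wnt ligand, rose from 2.53 and 2.44 at 0 h to 3.42 and 3.45 at 72 h. Il13ra1, a receptor chain for interleukins 4 and 13, fell from 4.18 and 3.73 at 0 h to 2.17 and 2.15 at 72 h (log2 change -0.65, SE 0.0578, adjusted p = 0.00447). Of 34 genes on the list of growth factor and cytokine receptors 2 fell and 0 rose, and the other of the 2, Efna5, is a ligand.

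Regulators downstream were mixed as well. Amotl2, which binds Yap in Hippo signalling, rose from 1.01 and 0.961 at 0 h to 2.04 and 2.25 at 72 h (log2 change 0.67, SE 0.0541, adjusted p = 0.00357). Lbh, a Wnt target, rose 1.67-fold, and Dner, a Notch ligand, fell 1.41-fold. Of the small GTPases and their regulators, Rhou rose 2.05-fold and Asap1 1.71-fold, while Arl4a fell 1.36-fold and Cdc42ep3, an effector of Cdc42, 1.76-fold. Protein phosphatases gave Ppp2r5a, a regulatory subunit of PP2A, higher (1.26-fold), and Ppp1cc, a catalytic subunit of PP1, and the receptor phosphatase Ptpru lower (1.31-fold and 1.54-fold). The list of kinases called 3 of 80, but 2 of them, Inpp5a (1.36-fold higher) and Inpp4a (1.5-fold lower), remove phosphates from inositol lipids or inositol phosphates and are no kinases. The third, the kinase Stk39, fell 1.34-fold. Of the 20 signalling calls 4 and 2 remained without a 0 h library and 3 and 4 without a 72 h library, Rgs4 and Il13ra1 in each case. Without either 48 h library 9 remained, and 13 with one total without ribosomal RNA.

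Enzymes of drug, steroid and oxidant metabolism had the most calls of any list, 7 higher and 3 lower of 71. Ephx1, the microsomal epoxide hydrolase, rose from 4.42 and 4.32 at 0 h to 7.46 and 7.02 at 72 h (log2 change 0.62, SE 0.0582, adjusted p = 0.00577). Gpx3, a secreted glutathione peroxidase, rose from 3.29 and 3.18 at 0 h through 3.53 and 4.03 at 24 h and 4.81 and 4.57 at 48 h to 4.82 and 4.98 at 72 h (log2 change 0.48, SE 0.0615, adjusted p = 0.0149). Gstp1, a glutathione transferase, was among the highest of all called genes, at 109 and 101 at 0 h against 151 and 156 at 72 h (log2 change 0.54, SE 0.0722, adjusted p = 0.0161). Its neighbour Gstp2 had 101 and 92.6 at 0 h against 144 and 141 at 72 h and a pseudogene, Gstp-ps, 19.05 and 17.5 at 0 h against 26.7 and 26.97 at 72 h. These 3 are near-identical copies with nearly equal ratios, so which copy rose is uncertain. Por, the electron donor of cytochrome P450 enzymes, rose from 9.26 and 8.44 at 0 h to 11.7 and 13.4 at 72 h (log2 change 0.46, SE 0.0813, adjusted p = 0.0405). The dehydrogenase gene Aldh1b1 rose 1.51-fold. Hsd3b7, an enzyme of bile acid synthesis, rose 1.33-fold, but 99.2% of its exonic bases lie in exons of another gene.

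Akr1c14, a reductase of steroids such as dihydrotestosterone, fell most in this class, from 1.62 and 1.62 at 0 h through 0.689 and 0.693 at 24 h and 0.542 and 0.598 at 48 h to 0.446 and 0.448 at 72 h (log2 change -0.85, SE 0.044, adjusted p = 0.000295). It was already low at 24 h, and the replicates of each time were close. It lies at chr13:4049011-4090688 (GRCm38). Prdx4, a peroxiredoxin of the endoplasmic reticulum, fell 1.33-fold and Gstm2, a glutathione transferase, 1.27-fold. In the weak genes Cyp2s1, a cytochrome P450, fell from 0.961 and 0.919 at 0 h to 0.432 and 0.436 at 72 h. Por, Aldh1b1 and Hsd3b7 were described after their values were seen. Of the 10 calls, Akr1c14 remained without any 1 of the 4 libraries and Ephx1 without 72 h replicate 2, 6 remained without each 48 h library, and 6 with one total without ribosomal RNA.

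Lipid enzymes gave 3 higher and 1 lower calls of 42. Enpp2, or autotaxin, which makes the signalling lipid lysophosphatidic acid, rose from 0.887 and 0.864 at 0 h through 1.63 and 1.57 at 24 h and 1.72 and 1.91 at 48 h to 2.34 and 2.41 at 72 h (log2 change 0.85, SE 0.0495, adjusted p = 0.00049). Sgms2, a sphingomyelin synthase, rose 1.36-fold and Mboat2, a lysophospholipid acyltransferase, 1.43-fold. The call of Sgms2 was lost under each of the 3 other scalings. Sptssa, a small subunit of serine palmitoyltransferase, which starts sphingolipid synthesis, fell from 9.67 and 9.22 at 0 h to 7.43 and 7.14 at 72 h (log2 change -0.33, SE 0.0523, adjusted p = 0.0257). In the weak genes Plpp3, which degrades lysophosphatidic acid, fell from 0.466 and 0.461 at 0 h to 0.119 and 0.16 at 72 h (log2 change -1.24, SE 0.151, adjusted p = 0.0141). Mgll, the monoacylglycerol lipase, fell from 0.235 and 0.272 at 0 h to 0.0725 and 0.103 at 72 h. Enpp2 was thus higher and the weakly expressed Plpp3 lower at 72 h, and a link between them was not tested. The call of Plpp3 was lost when any 1 of the 4 libraries was left out.

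Other metabolic enzymes gave few calls. Odc1, the first enzyme of polyamine synthesis, had 7.58 and 7.36 at 0 h, 11.4 and 8.39 at 24 h and 10.2 and 10.4 at 48 h, and 14.4 and 12.3 at 72 h (log2 change 0.76, SE 0.129, adjusted p = 0.0352), with libraries of 24 h that differed by more than those of 0 h. Ahcy, which clears S-adenosylhomocysteine, the product that inhibits methyltransferases, rose from 5.85 and 6.02 at 0 h to 7.81 and 7.31 at 72 h (log2 change 0.30, SE 0.0533, adjusted p = 0.0393). G6pdx, which opens the pentose phosphate pathway, rose 1.33-fold as the 1 call of 45 genes of sugar metabolism. It shares 13.6% of its exonic bases with other genes. Acsl3, which activates fatty acids, fell 1.4-fold as the 1 call of 41 genes of cholesterol and fatty acid synthesis. Of these 8 lipid and metabolic calls of the main test only Enpp2 remained without any 1 of the 4 libraries, 2 without each 48 h library, and 2 with one total without ribosomal RNA.

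Lysosome and autophagy genes were called in 3 of 71 cases. Tfeb, a master factor of lysosomal genes, rose in the weak genes from 0.437 and 0.476 at 0 h through 1.36 and 1.17 at 24 h and 1.39 and 1.26 at 48 h to 1.34 and 1.47 at 72 h (log2 change 1.44, SE 0.103, adjusted p = 0.00226). Lgmn, a lysosomal protease, rose from 3.4 and 3.08 at 0 h to 4.74 and 4.2 at 72 h (log2 change 0.37, SE 0.0654, adjusted p = 0.0405). Gla, the alpha-galactosidase, rose from 1.18 and 1.09 at 0 h to 1.54 and 1.58 at 72 h (log2 change 0.26, SE 0.045, adjusted p = 0.0366). Scarb2, a lysosomal membrane protein that carries glucocerebrosidase, fell from 4.91 and 4.83 at 0 h to 3.41 and 3.32 at 72 h (log2 change -0.43, SE 0.0572, adjusted p = 0.0166). The median log2 change of the 71 genes was 0.00, and 0 of 16 subunits of the lysosomal proton pump were called (3 had an unadjusted p under 0.05), with Atp6v0c at 16.04 and 15.9 at 0 h against 19.02 and 19.1 at 72 h (adjusted p = 0.0656).

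The promoter window of Gla is printed because Gla is a called lysosomal gene and its window holds the E-box CACGTG (capitals), the core letters that Tfeb and related factors bind. The window is chrX:134600956-134601255, minus strand, RefSeq on GRCm38.p6:
Gla: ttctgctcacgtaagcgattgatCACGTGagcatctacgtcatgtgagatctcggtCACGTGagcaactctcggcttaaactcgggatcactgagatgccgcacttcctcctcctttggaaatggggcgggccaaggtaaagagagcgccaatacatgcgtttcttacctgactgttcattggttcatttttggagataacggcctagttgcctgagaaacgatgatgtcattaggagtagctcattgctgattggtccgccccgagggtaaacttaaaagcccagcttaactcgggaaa
These 6 letters occur at 2 places in it. They stood in 7.15% of all 32851 RefSeq windows. Counted by gene instead, 12.3% of the 6389 tested genes with a window had them in at least 1 window. The match is a description of letters, not of binding. Of 2 sulfatases that were picked after their values were seen, the lysosomal Galns rose from 0.586 and 0.724 at 0 h to 1.73 and 1.87 at 72 h and Arsg fell from 1.5 and 1.45 at 0 h to 0.631 and 0.507 at 72 h, the only called genes of 7 sulfatases tested. Appl2, an endosomal adaptor, fell from 3.8 and 3.51 at 0 h to 1.64 and 1.71 at 72 h (log2 change -0.80, SE 0.0781, adjusted p = 0.00608). The 6 main calls on lysosomes, sulfatases and endosomes came to 0 and 0 without a 0 h library and to 1 and 2 without a 72 h library. With one total without ribosomal RNA 4 remained.

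Chromatin and transcription genes gave few calls. Chd9, a chromodomain remodeller, fell from 12.9 and 12.8 at 0 h through 10.5 and 9.17 at 24 h and 8.42 and 9.01 at 48 h to 8.54 and 8.42 at 72 h (log2 change -0.54, SE 0.0696, adjusted p = 0.0149). It was the 1 called gene of 149 remodellers and histone modifiers. Of 52 homeobox, paired, Sox and Fox genes, Nkx6-2 rose from 4.18 and 4.41 at 0 h to 5.88 and 5.96 at 72 h and Zhx2 rose 1.38-fold. Sox4 fell from 3.54 and 3.28 at 0 h to 2.3 and 2.41 at 72 h, with 54.6% of its exonic bases shared with another gene. For Nkx6-2 this share was 12.9%. The zinc finger genes Zfp750 (2.02-fold), Zfp275 (1.56-fold) and Zfp672 (1.41-fold) rose and Zbtb18, a neuronal repressor, fell 1.32-fold, 4 of 136 in all. Corepressor genes on no list, seen in the values, went both ways: Bcor rose 1.4-fold, Mta3 of the NuRD complex rose 1.46-fold and Runx1t1 fell 1.4-fold. In the weak genes the corepressor Tle3 fell from 0.871 and 0.824 at 0 h to 0.403 and 0.434 at 72 h and Ebf3, a factor of neurons, from 1.0 and 1.0 at 0 h to 0.478 and 0.465 at 72 h. Apobec2, of the family of cytidine deaminases, rose from 0.111 and 0.109 at 0 h to 0.287 and 0.255 at 72 h, the 1 called of 9 weakly expressed genes of DNA methylation and demethylation. None of the 11 main calls here remained without a 0 h library, and only Zfp750 did without either 72 h library. Without either 48 h library 4 remained, and 3 with one total without ribosomal RNA.

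Genes of antigen presentation and the interferon response held 4 higher and 2 lower calls of 29. Tmem176a and Tmem176b, overlapping neighbours that encode membrane proteins known from dendritic cells, both rose. Tmem176a went from 3.98 and 3.77 at 0 h to 6.06 and 7.36 at 72 h (log2 change 0.66, SE 0.0859, adjusted p = 0.0157) and Tmem176b from 13.1 and 12.9 at 0 h to 18.2 and 19.4 at 72 h (log2 change 0.50, SE 0.0724, adjusted p = 0.019). Tapbp, which loads peptides onto class I molecules, rose from 2.93 and 2.65 at 0 h to 4.25 and 4.15 at 72 h (log2 change 0.46, SE 0.0571, adjusted p = 0.0147). Psmb8, a subunit of the immunoproteasome, rose 1.39-fold. Tapbp shares 29.0% and Psmb8 14.7% of its exonic bases with other genes. Pglyrp1, which binds bacterial cell wall, fell from 6.12 and 6.21 at 0 h to 4.48 and 4.18 at 72 h. H2-T23, a class I gene of a family with near-identical members, fell from 4.11 and 3.82 at 0 h to 2.91 and 2.5 at 72 h. Of 25 weakly expressed members of the list 0 were called by limma (7 had an unadjusted p under 0.05), and 22 had a log2 change above 0 (median 0.28, against 0.01 over all weakly expressed genes). Immune cell markers gave 0 tested genes in the main test and 0 calls of 3 in the weak one. NF-kappa-B subunits, inhibitors and feedback genes were picked after their values were seen, so their count is no support for a rise of this set. Of 9 tested 3 rose and 0 fell, where 1.24% of all tested genes were called higher. Nfkbia, the inhibitor of NF-kappa-B, rose from 2.01 and 2.02 at 0 h to 3.11 and 3.0 at 72 h. Bcl3 rose from 2.4 and 2.09 at 0 h to 3.47 and 3.51 at 72 h, and Ier3 as given above. Of 9 weakly expressed genes of this set Birc3 rose from 0.347 and 0.331 at 0 h to 0.588 and 0.571 at 72 h. Of 8 calls in this paragraph (without Ier3 and Birc3) only Tmem176a remained without 72 h replicate 1, 0 without any 1 of the other 3 libraries, and 6 with one total without ribosomal RNA.

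At the cell surface and in the matrix, 2 of 21 matrix genes rose and 0 fell. Mfge8, a secreted protein that bridges dying cells to phagocytes, had 2.69 and 2.74 at 0 h, 3.65 and 3.96 at 24 h and 5.44 and 5.09 at 48 h, and 7.1 and 6.7 at 72 h (log2 change 1.09, SE 0.0568, adjusted p = 0.000295). Cldn3, a tight junction protein gene, rose 1.26-fold as the 1 call of 62 adhesion genes. Tetraspanins and their relatives were counted after their values were seen: of 14 tested, Tspan15 rose 1.58-fold, and Tspan7 (1.33-fold), Tspan17 (1.48-fold) and Tm4sf1 (1.59-fold) fell. Only Mfge8 of these 6 named calls remained without any 1 of the 4 libraries, and 3 remained with one total without ribosomal RNA.

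Among the 8249 weakly expressed genes 105 (1.27%) were called, 64 (0.776%) higher and 41 (0.497%) lower, with 1016 at an unadjusted p under 0.05. A gene near 0 at one of the 2 times passed the limit of 0.1 only through the other. The median ratio was larger than in the main set, 2.23-fold for the higher and 2.28-fold for the lower. Cilp, a matrix protein of cartilage, rose from 0.0458 and 0.0622 at 0 h through 0.23 and 0.264 at 24 h and 0.451 and 0.364 at 48 h to 0.486 and 0.442 at 72 h (log2 change 1.87, SE 0.142, adjusted p = 0.00287). Kit, the receptor of stem cell factor, rose from 0.202 and 0.21 at 0 h to 0.489 and 0.554 at 72 h (log2 change 1.02, SE 0.113, adjusted p = 0.0101). Sv2c, a synaptic vesicle protein, rose 2.43-fold and Gas6, a ligand of Axl-family receptors, 2.84-fold. Pde2a, which breaks down cyclic nucleotides, rose 2.42-fold, with 64.3% of its exonic bases shared, and Prkar1b, a regulatory subunit of protein kinase A, from 0.538 and 0.534 at 0 h to 0.889 and 0.928 at 72 h. Tgfb3, a TGF beta ligand, rose 2.33-fold, with 12.4% of its exonic bases shared. The higher weak genes thus came from several classes, with at most 3 from 1 list.

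Among the lower weak genes Astn2, a membrane protein of migrating neurons, fell from 0.53 and 0.486 at 0 h through 0.227 and 0.18 at 24 h and 0.13 and 0.17 at 48 h to 0.102 and 0.0483 at 72 h (log2 change -1.81, SE 0.188, adjusted p = 0.00762). Rmst, a long noncoding RNA of neuronal cells, fell from 0.553 and 0.546 at 0 h through 0.417 and 0.36 at 24 h and 0.263 and 0.286 at 48 h to 0.156 and 0.168 at 72 h (log2 change -1.31, SE 0.115, adjusted p = 0.00535). Epha5, an ephrin receptor, fell from 1.11 and 1.17 at 0 h to 0.578 and 0.527 at 72 h (log2 change -0.93, SE 0.11, adjusted p = 0.0127). Sln and Fxyd3, small regulators of ion pumps, fell from 0.211 and 0.279 at 0 h to 0.0521 and 0.0727 at 72 h and from 0.473 and 0.505 at 0 h to 0.146 and 0.159 at 72 h. Olfml3, a secreted olfactomedin protein, fell from 0.488 and 0.542 at 0 h to 0.179 and 0.129 at 72 h. Fxyd3 shares 42.5% and Rmst 38.8% of its exonic bases with other genes. Read depth is not given, so how many reads stand behind signals this low is unknown. Of the 105 calls 5 and 4 remained without a 0 h library, 22 and 14 without a 72 h library and 44 without either 48 h library. Cilp, Oacyl, Sytl2 and Tfeb were called in all 8 fits that left out a library. With one total without ribosomal RNA 79 remained. Without 72 h replicate 1 the fit called 49 weak genes, 27 of them not called with all libraries.

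**Figure D5:**
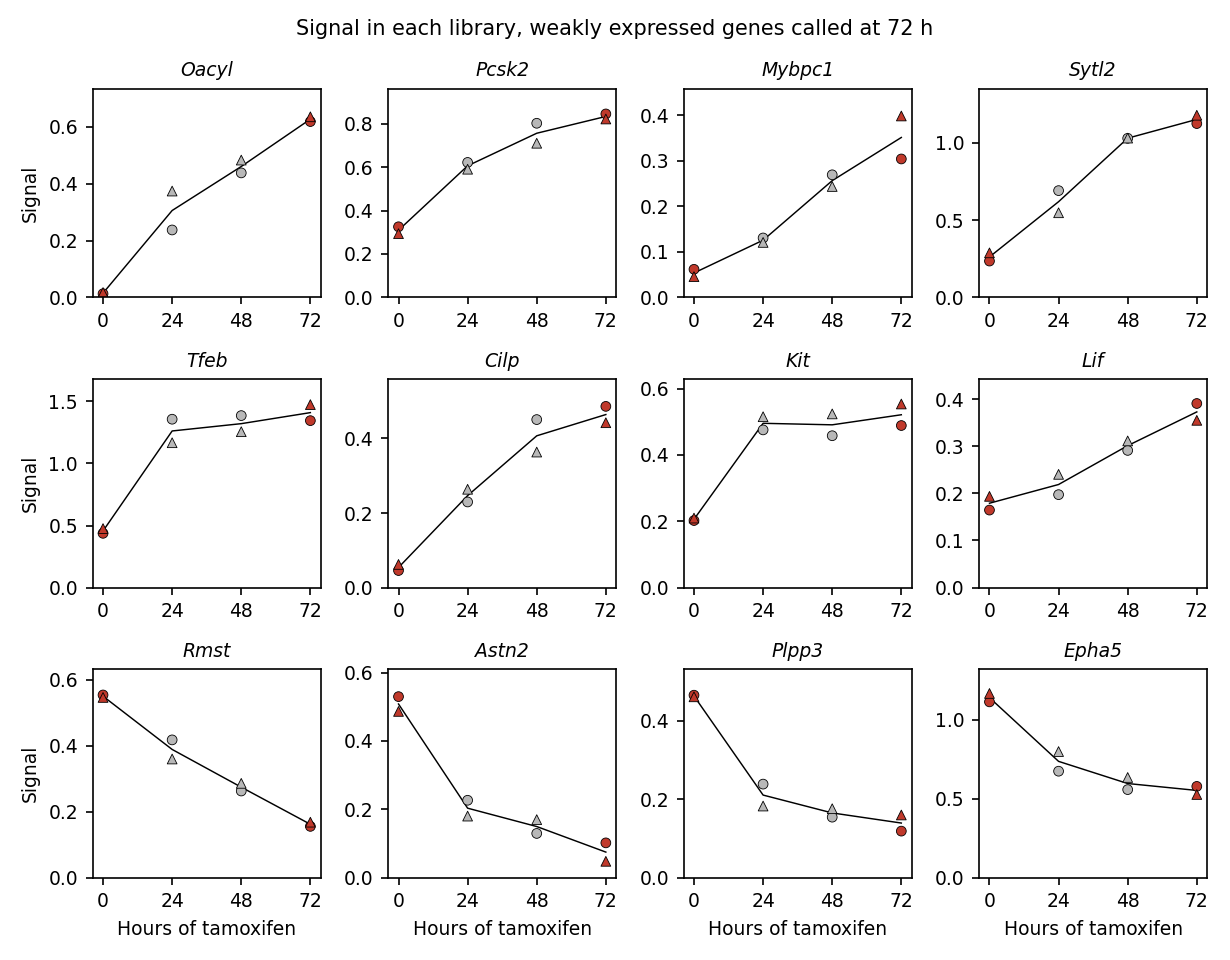
Signal (y axis, linear from 0) against hours of tamoxifen (x axis) for 12 weakly expressed genes called at 72 h; symbols as in the plot of 16 called genes. The upper 8 genes rose and the lower 4 fell, and the 0 h and 72 h libraries do not overlap in any of the 12.

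Called genes lay next to each other in several places. The 300 called genes of both tests formed 261 loci when genes within 20000 bases of each other were joined, and 32 loci held 2 or more of them (71 genes). How often uncalled neighbours share a direction was not tested, and all 32 loci moved in 1 direction. In 23 of them genes overlap, so that shared reads count for each, and in 9 they do not. The loci without overlap included Tnfrsf22 and Tnfrsf23, decoy receptors of the TNF family, both higher, and Sema4c with Fam178b, both higher. They also included Lrrc75b with Ggt1, both lower. By chromosome in the main set, 16 of 358 tested genes on chromosome 12 (4.47%) were called, against 2.03% of all tested genes. Of the higher ones on chromosome 12, 5 lie at the Rtl1 locus. On chromosomes 6 and 15 all 9 called genes of each rose in the main set, where 119 of all 195 called genes rose. Some genes on these chromosomes overlap and share reads, namely Mest with Copg2, Tmem176a with Tmem176b and Ank with Mir7117. Among weakly expressed genes, 3 were called higher and 4 lower on chromosome 6, and 3 higher and 1 lower on chromosome 15.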

How the data were processed

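RNA of 8 libraries was sequenced after ribosomal depletion, per the labels' protocols, although their molecule field names genomic DNA. The deposited signal is a gene's coverage per exonic base, which the authors normalized by a rule that the labels do not state. Per the submitters' processing notes, HISAT2 2.2, SAMtools 1.12 and deepTools 3.5 were among the tools, with builds mm10 and GRCm38. Of 55401 genes, 55141 (99.5%) occur in GENCODE M21. Genes with a mean of at least 1 over the 4 libraries were fitted in limma 3.58.1 (R 4.3.3) with an intensity trend on log2(signal + 1) over all 8 libraries, with time as the only term and 4 residual degrees of freedom. Weakly expressed genes came from a fit on log2(signal + 0.1) of all genes with a mean of at least 0.1. P-values were adjusted by Benjamini-Hochberg over each set, with a threshold of 0.05. The labels gave coverage no unit, and the test planned for normalized values was kept. In a list with calls, up to 4 members a direction were named by size, in a list with none, up to 2 with the lowest p, and beside them the 15 largest changes each way (12 for weak genes). Members and lists were chosen with earlier results of these data known, and 1 list pattern was corrected after the values were seen. Some called genes are counted in the lists but are not reported here by name. The fit was tested on simulated data. An exact permutation of 2 against 2 libraries cannot reach 0.05 and was not used. Alternatives were 3 other scalings, other pseudocounts and filters, no trend, the 4 libraries alone, a replicate block and leaving out each library.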

Additional observations from a re-analysis of the deposited data

How the results depend on the processing

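The number of calls at 72 h (195) was 109 when libraries were scaled to one total without ribosomal RNA, 63 with no filter and 71 with a mean of at least 5. It ranged from 10 (without 0 h replicate 2) to 326 (without 24 h replicate 1) when a library was left out, and an arm left with 1 library was assumed to vary like the others. For weakly expressed genes the 105 calls were 62 with the 0 h and 72 h libraries alone, 65 with a replicate block, and from 4 (without 0 h replicate 2) to 118 (without 24 h replicate 2) when a library was left out. The replicate block gave 157 calls in the main set, 144 of them shared with the 195. The labels link replicates of different times only by number. Deviations from the group means correlated at -0.01 to 0.40 over the 6 pairs of times, not all above 0.1. The highest were 0.40 for 24 h with 48 h and 0.35 for 0 h with 48 h. Replicate 2 of 24 h and replicate 2 of 48 h correlated at 0.995, above the replicates of 24 h (0.984) and of 48 h (0.985). Whether replicates of the same number share a batch was not tested. Other scalings by median ratio and quantiles, both lower pseudocounts, no trend and a filter over 8 libraries gave 186 to 206 calls. The 0 h and 72 h libraries alone gave 152. Of the 195 calls, 177 were kept with median ratio scaling and 167 with quantiles, and 88 under all 3 other scalings. Of the named genes, 0 changed sign under an alternative where either fit called them. Of their values, 757 lost a call, 17 gained a call and 2256 stayed called or uncalled. Changes of sign in genes that neither fit called were not counted. The cause of these differences was not tested, except that filters change how many genes are tested. Depth is unknown, so counting error cannot be given.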
